A study of Mus musculus with 28 samples.

Results

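The genes described here encode, in the cell nucleus, the subunits of the mitochondrial respiratory chain and ATP synthase, together with a few factors that share their names. Members were chosen by gene symbol: names that begin with Nduf followed by a, b, c, s or v, the names Sdha to Sdhd, and names that begin with Uqcr, Cox4 to Cox8, or Atp5. Of 100 such names in the table, 7 were pseudogenes and were left out, and of the remaining 93 a gene was kept where its value reached 10 in at least 3 of 24 libraries. That left 92 members of the 49341 genes in the table, and 24911 genes passed the same level and were tested. Cox8c was listed at 0 in all 24 libraries and was the name that did not pass. By complex, 36 members belonged to complex I (7 core and 29 accessory subunits), 4 to complex II, 8 to complex III, 19 to complex IV and 15 to complex V. A further 10 belonged to no complex: 8 Ndufaf genes, whose products help to assemble complex I, and Atp5s and Atp5sl, which carry the Atp5 name without being ATP synthase subunits. The level of 10 was reached in every library by 84 members. Closest to the threshold on its inner side was Cox8b, which reached it in 7 libraries, followed by Cox7b2 in 8.

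The study compared RNA from the dendritic layers and from the cell body layers of the mouse hippocampus, in 4 subregions. Tissue was cut out by laser capture microdissection, in which a laser lifts chosen areas from a thin frozen section, here 8 µm thick. Every library came from 1 of 3 adult male Amigo2-EGFP mice on a C57BL/6J background, aged 6 to 8 weeks, from separate litters and numbered 492, 496 and 502. All groups therefore carry the Amigo2-EGFP reporter, a transgene that makes CA2 neurons fluorescent, and no mouse without it is among these samples. The groups were dendrites and cell bodies of the dentate gyrus (DG) and of the hippocampal fields CA1, CA2 and CA3, with 3 libraries in each of the 8 groups, 1 per mouse. Dendrites of the CA subregions are the stratum radiatum and those of the DG the molecular layer, and cell bodies are the stratum pyramidale and the granule cell layer. A dendritic layer is not a preparation of dendrites alone, since it also holds glia, blood vessels, interneurons and the axons that pass through it. In such bulk tissue, fewer cells of a type and less RNA per cell cannot be told apart. Dendrite libraries were made from 1 ng of RNA and cell body libraries from 5 ng, so the amount of input cannot be told apart from the compartment. The 8 libraries of a mouse were prepared together and sequenced in 1 lane, so mouse, preparation and lane are the same factor, a term of the main fit. The CA2 and DG dendrites of mice 492 and 502 may be an exception, since their preparation was repeated. It is not known which preparation their columns hold, so preparation and lane may differ there from the rest of the mouse.

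The respiratory chain passes electrons from NADH, at complex I, and from succinate, at complex II, through coenzyme Q to complex III, then through cytochrome c to complex IV, where oxygen is reduced. Complexes I, III and IV pump protons across the inner mitochondrial membrane, and complex V, the ATP synthase, uses the return of those protons to make ATP. Complexes I, III, IV and V also contain subunits made inside the mitochondrion from its own genome. Complex II is encoded wholly in the nucleus. Neurons depend strongly on this pathway, and mitochondria lie along dendrites and in axon terminals as well as in the cell body.

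The libraries differed in ways that bear on every value below. Values are the authors' deposited log2 values, normalized by the median, in which 1 was added before the logarithm, so that a gene not detected is listed at 0. The values of a library summed to 36900000 to 98700000 normalized counts in dendrites and 29200000 to 55500000 in cell bodies. Transcripts of the mitochondrial genome made up 29.5% to 46.9% of the dendrite sums and 4.22% to 9.08% of the cell body sums, and 13 of 13 mitochondrial mRNAs were called higher in dendrites. The nuclear members made up 0.371% to 0.539% of the dendrite sums and 0.626% to 0.982% of the cell body sums. With the mitochondrial genome left out of the sums, those shares were 0.551% to 1.01% in dendrites and 0.659% to 1.08% in cell bodies. Markers of glia and vessels were higher in dendrites: 12 of 12 astrocyte, 12 of 12 oligodendrocyte, 11 of 11 microglial and 10 of 10 endothelial markers were called. Of all genes tested, 19.8% were called higher in dendrites in the mean of 4 subregions. The part of glia and vessels in the differences below was not tested. The markers of each subregion's principal neurons summed highest in the cell bodies of that subregion, though not all lists separated it equally. CA2 markers summed to 89570 to 117100 normalized counts in CA2 cell bodies against 5427 to 12820 in the other cell bodies. CA3 markers separated CA3 from CA2 less, at 47120 to 49660 in CA3 cell bodies against 34390 to 38230 in CA2 cell bodies. In dendrites the separation was weaker for CA2 markers, at 14620 to 18070 in CA2 dendrites against 4324 to 18030 in the others. The CA1 dendrite libraries of mice 492 and 496 stood apart from the other dendrite libraries.

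In normalized counts per kilobase of transcript, a scale on which genes can be compared, the most abundant members were nearly the same in both compartments. Over dendrite libraries the median was 34270 for Cox6a1, 29900 for Cox8a, 17160 for Cox6c, 12780 for Atp5b and 11220 for Cox4i1. Over cell body libraries it was 19320 for Atp5b, 16740 for Cox8a, 14300 for Cox6a1, 13480 for Cox6c and 9908 for Atp5h. Cox6a1, Cox8a, Cox6c and Cox4i1 encode nuclear subunits that surround the catalytic core of complex IV, Atp5b encodes the catalytic beta subunit of complex V, and Atp5h a subunit of its peripheral stalk. The median member of each complex had 1692 normalized counts per kilobase in dendrites against 2385 in cell bodies for complex I, 1481 against 2158 for complex II, 2800 against 3372 for complex III, 2732 against 4604 for complex IV, and 2924 against 4767 for complex V. These medians were taken separately in each compartment and can come from different members. For complex IV, the median of the members' own log2 differences pointed the other way, at 0.29 (dendrites minus cell bodies).

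More members were lower in dendrites than higher, and those that were higher were mainly subunits of complex IV. Averaged over the 4 subregions, 45 of 92 members fell and 8 rose, against a background of 45.2% of all genes called, 19.8% higher and 25.4% lower (limma, mouse as a block, two-sided, Benjamini-Hochberg adjusted p under 0.05 over all genes tested). The share of members called was 57.6%. The median member differed by −0.40 on the log2 scale and the median of all genes by −0.20, a member median of −0.20 relative to all genes. Complex I had 20 members lower and 1 higher with a median of −0.44, complex II had 2 lower and none higher (−0.36), complex III had 5 lower and none higher (−0.44), and complex V had 9 lower and none higher (−0.48). Complex IV had 7 members higher and 3 lower, with a median of 0.29. Among the 7 are Cox4i2 and Cox8b, low-level genes that passed the filter only through dendrite libraries. Among complex V subunits, 15 of 15 differences were below 0, though 6 of them did not pass. Without mouse 502 the members called numbered 32. Complex IV's median turned to −0.22 when values were scaled to library totals that include the mitochondrial genome. That scaling also lowered the median of all genes, and complex IV's median stayed above it, as with the deposited values (0.49 relative to all genes).

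**Figure D1:**
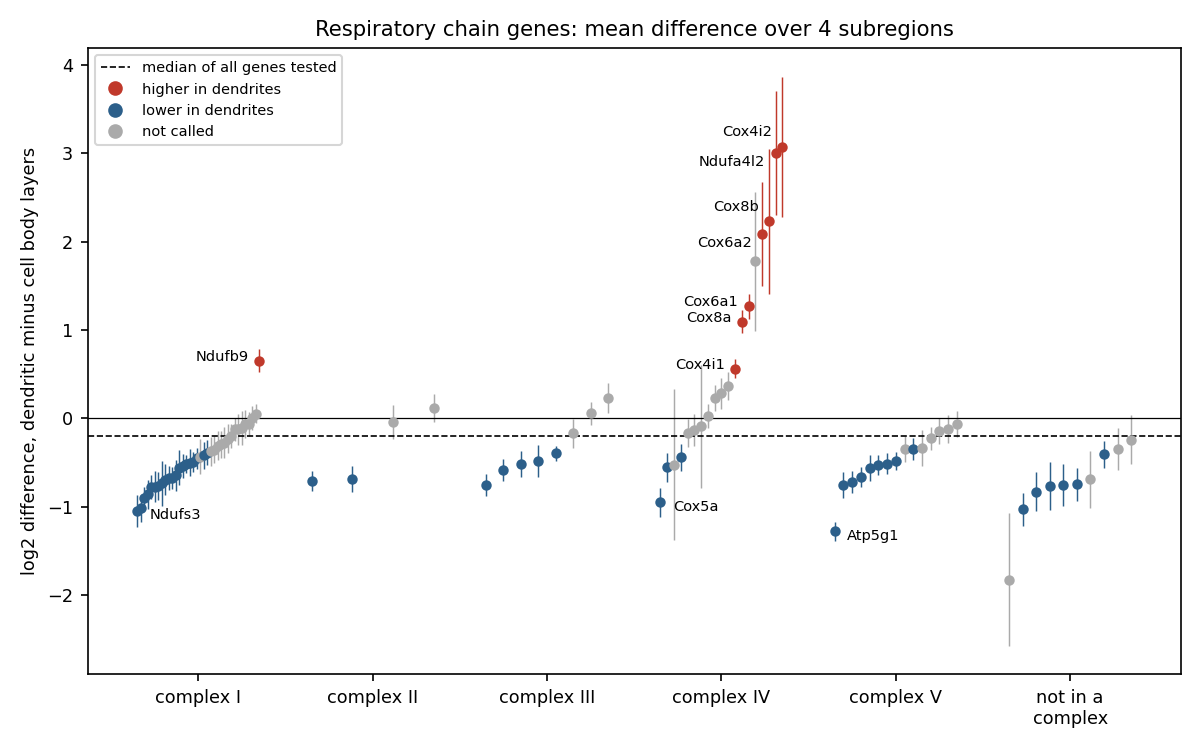
Difference in log2 value between dendrites and cell bodies, averaged over 4 subregions, for each of 92 members in columns by complex. Points are the fitted differences, bars 1 SE, colours mark members called and the dashed line is the median of all genes (−0.20). Complex IV spreads to both sides of 0, while 15 of 15 complex V members lie below 0.

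Cox6a1 and Cox8a were the most abundant members that were higher in dendrites. Cox6a1 encodes the broadly expressed form of subunit 6A of complex IV, a small subunit on the outside of the complex, and its gene lies on the minus strand at chr5:115345642-115348981 (GRCm38). Its log2 value in dendrites of mice 492, 496 and 502 was 15.64, 14.21 and 14.59 for CA1, 15.13, 14.26 and 14.42 for CA2, 14.22, 14.49 and 13.93 for CA3, and 13.84, 14.26 and 13.41 for DG. In cell bodies it was 12.99, 13.00 and 12.77 for CA1, 13.27, 13.35 and 14.06 for CA2, 13.49, 13.35 and 12.98 for CA3, and 12.40, 12.74 and 12.74 for DG. Every one of the 12 mouse and subregion pairs was higher in dendrites, although across subregions the CA2 cell bodies of mouse 502 and the CA3 cell bodies of mouse 492 lay above the lowest dendrite library. The difference was 1.27 ± 0.143 (SE of the fit over 24 libraries of 3 mice), or 2.41-fold (limma, adjusted p = 5.5e-08).

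Cox8a, on chromosome 19 (chr19:7215153-7217616, minus strand), encodes the broadly expressed form of subunit 8, the smallest of the nuclear complex IV subunits. Its log2 values ran from 12.88 to 15.49 with a median of 14.00 in dendrites and from 12.03 to 13.80 with a median of 13.17 in cell bodies. Within a mouse and subregion it was higher in dendrites in 12 of 12 pairs, by 1.10 ± 0.130 on average (adjusted p = 1.44e-07). Both genes stayed called under each of 13 other settings, and no other member that rose did so. Cox4i1, the usual form of subunit 4, which binds ATP and tunes the complex, had 12.28 to 13.47 (median 12.99) in dendrites against 11.80 to 13.31 (median 12.31) in cell bodies, higher in 11 of 12 pairs (0.56 ± 0.107, adjusted p = 0.000113). Ndufb9, an accessory subunit of complex I's membrane arm, was its only member that rose, with 11.87 to 13.60 (median 12.44) in dendrites against 11.19 to 12.36 (median 11.78) in cell bodies (0.66 ± 0.130, adjusted p = 0.00018). The abundant complex IV genes Cox7c, Cox6c and Cox5b, chosen for mention after their values were seen, had positive differences of 0.36, 0.29 and 0.24 that did not pass (adjusted p = 0.0623, 0.199 and 0.201).

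**Figure D2:**
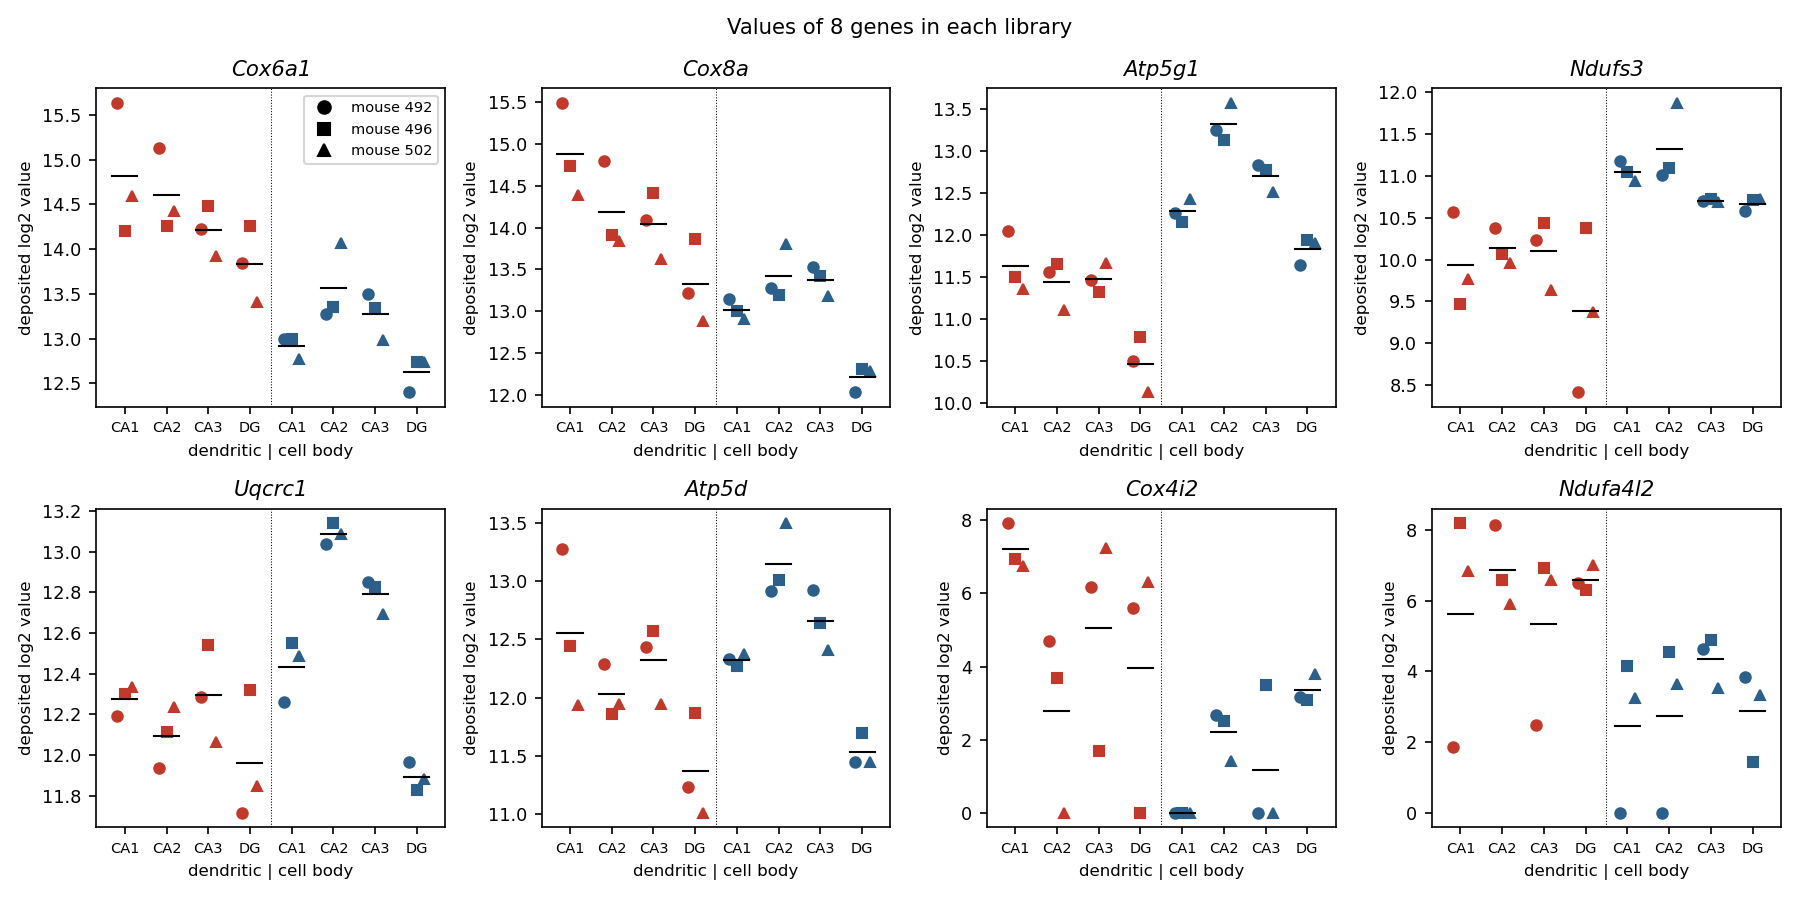
Deposited log2 value (vertical axis) of 8 members in each of 24 libraries, the 4 dendrite groups left of the 4 cell body groups, with 1 point per mouse and a bar at the group mean. Cox6a1 and Cox8a are higher in the dendrites of every mouse and subregion, Atp5g1 and Ndufs3 lower, and Cox4i2 is listed at 0 in several cell body libraries.

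The other 4 members that rose were low-level paralogs of common subunits, each known from particular tissues or cells. Cox4i2 is an alternative form of subunit 4 known from lung and from the smooth muscle cells and pericytes of vessels. Its log2 value in dendrites of mice 492, 496 and 502 was 7.93, 6.94 and 6.76 for CA1, 4.70, 3.67 and 0 for CA2, 6.19, 1.70 and 7.24 for CA3, and 5.60, 0 and 6.31 for DG. In cell bodies it was listed at 0 in all 3 CA1 libraries, at 2.67, 2.50 and 1.42 for CA2, at 0, 3.49 and 0 for CA3, and at 3.16, 3.10 and 3.79 for DG. The gene passed the test for the mean of 4 subregions (adjusted p = 0.00257), but the size of its fitted difference depends on the value of 0 given to undetected genes and is not given. Ndufa4l2, a paralog of Ndufa4 known from pericytes and from cells short of oxygen, had 1.86, 8.19 and 6.83 in CA1 dendrites, 8.12, 6.57 and 5.90 in CA2 dendrites, 2.49, 6.93 and 6.57 in CA3 dendrites, and 6.49, 6.29 and 7.01 in DG dendrites. In cell bodies it had 0, 4.14 and 3.25 for CA1, 0, 4.55 and 3.63 for CA2, 4.64, 4.88 and 3.52 for CA3, and 3.83, 1.44 and 3.32 for DG. Dendrite libraries were above every cell body library except the CA1 and CA3 dendrites of mouse 492 (adjusted p = 0.00108).

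Cox6a2, the heart and muscle form of subunit 6A, which in the brain is known from parvalbumin interneurons, had 0 to 9.13 (median 7.04) in dendrites and 2.23 to 6.53 (median 4.22) in cell bodies (2.09 ± 0.590, adjusted p = 0.00536). The lowest dendrite value was the CA1 library of mouse 502, and the next lowest was 6.05. Cox8b, the heart and muscle form of subunit 8, was detected in 6 of 12 dendrite libraries, at 3.67 to 6.07, and in 1 of 12 cell body libraries, at 3.74 in the DG of mouse 492 (adjusted p = 0.0298). Cox6b2, a testis form of subunit 6B, did not pass (adjusted p = 0.0696). Markers of mural cells, a list chosen after values were seen, summed to 19850 to 38860 normalized counts in dendrites and 1014 to 3958 in cell bodies, with 10 of 10 called higher and none at 0. Endothelial markers summed to 15150 to 30480 in dendrites and 1764 to 6517 in cell bodies. Interneuron markers summed to 26850 to 97680 in dendrites and 14660 to 59480 in cell bodies, with 9 of 12 called higher. Of all genes, 19.8% were called higher. The parvalbumin gene Pvalb itself had log2 values of 5.94 to 9.94 in dendrites and 6.59 to 9.49 in cell bodies. In DG of mice 492, 496 and 502 it had 5.94, 7.29 and 6.74 in dendrites against 6.59, 6.88 and 6.82 in cell bodies. The part of these cells in the paralogs' differences was not tested.

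Within paralog sets, the common and the tissue-restricted forms did not always move alike. For subunit 6A of complex IV, both the common form and the muscle form rose. The common forms of subunit 8 and subunit 4 rose as well. Their paralogs Cox8b and Cox4i2 were called higher but passed the filter only through dendrite libraries, so no comparison of forms is drawn from them. Ndufa4, the common form of a subunit first assigned to complex I and now to complex IV, fell by 0.55 on the log2 scale (adjusted p = 0.00713) while Ndufa4l2 rose. The common forms Cox6b1 and Cox7a2, the muscle form Cox7a1 and the paralog Cox7a2l had differences of −0.17, −0.13, −0.09 and 0.03, none of which passed. The 3 genes Atp5g1, Atp5g2 and Atp5g3 encode the same mature c subunit of the ATP synthase's rotating ring behind different import sequences. Atp5g1 and Atp5g3 fell, by 1.28 and 0.75, and Atp5g2 had a difference of −0.23 that did not pass (adjusted p = 0.156). Whether the 3 differences were unequal was not tested.

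Among the 7 core subunits of complex I, 6 fell and none rose, with a median of −0.67. Ndufs3, a core subunit of the arm that faces the matrix (chr2:90894634-90904827, minus strand), was the only member for which all 12 dendrite libraries lay below all 12 cell body libraries, though by a narrow gap. Its log2 values were 8.41 to 10.57 (median 10.01) in dendrites and 10.58 to 11.87 (median 10.83) in cell bodies, and it fell by 1.05 (adjusted p = 3.62e-05). Over all genes, 1.37% were placed in that way and 5.26% in the opposite way. Ndufv2, which carries an iron-sulfur cluster near the NADH site, fell by 0.90 and was lower in 12 of 12 pairs. Ndufv1, which binds NADH, fell by 0.67, Ndufs7, next to the site where coenzyme Q is reduced, by 0.67, and Ndufs8, which carries a pair of clusters, by 0.52. Ndufs1, the largest core subunit, differed by −0.29 and did not pass (adjusted p = 0.124). Among the 29 accessory subunits 14 fell and 1 rose. Ndufs4, an accessory subunit needed for a stable NADH-binding part, had 9.17 to 10.87 (median 9.92) in dendrites against 10.30 to 11.76 (median 10.90) in cell bodies and fell by 1.02 (adjusted p = 4.15e-06). Ndufa11 fell by 0.86.

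In complex II, the iron-sulfur subunit Sdhb and the membrane anchor Sdhd fell, by 0.71 (adjusted p = 1.16e-05) and 0.68 (adjusted p = 0.000531). Sdha, which binds succinate, and the second anchor Sdhc had differences of −0.04 and 0.12 that did not pass (adjusted p = 0.882 and 0.578). Sdhb had log2 values of 10.66 to 12.15 (median 11.15) in dendrites and 11.03 to 12.47 (median 12.08) in cell bodies, and Sdha had 11.73 to 14.56 (median 12.71) in dendrites and 12.15 to 13.79 (median 12.88) in cell bodies. The groups overlapped for both genes. In complex III, the structural core proteins Uqcrc2 and Uqcrc1 and the Rieske iron-sulfur protein Uqcrfs1 fell by 0.75, 0.39 and 0.58 (adjusted p = 2.28e-05, 0.00047 and 0.000437).

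In complex IV, the member that fell most was Cox5a, a subunit on the matrix side that binds a thyroid hormone metabolite. Its log2 values were 9.94 to 11.83 (median 11.08) in dendrites and 10.76 to 12.92 (median 11.91) in cell bodies, a fall of 0.95 (adjusted p = 3.01e-05) beside the rises of Cox6a1 and Cox8a in the same complex. In complex V, the catalytic beta subunit Atp5b and its partner alpha subunit Atp5a1 fell by 0.53 and 0.48 (adjusted p = 0.000385 and 0.000318), and the central stalk subunit Atp5c1 by 0.66. Atp5g1 (chr11:96068852-96075670, minus strand) had the smallest adjusted p of all members. Its log2 value in dendrites of mice 492, 496 and 502 was 12.04, 11.50 and 11.36 for CA1, 11.56, 11.65 and 11.11 for CA2, 11.46, 11.32 and 11.66 for CA3, and 10.49, 10.78 and 10.12 for DG. In cell bodies it was 12.26, 12.15 and 12.43 for CA1, 13.25, 13.14 and 13.58 for CA2, 12.83, 12.77 and 12.52 for CA3, and 11.64, 11.94 and 11.90 for DG. Each of the 12 pairs was lower in dendrites, and across subregions the highest dendrite libraries overlapped the DG cell bodies (fell by 1.28, SE 0.110, adjusted p = 5.13e-10).

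The calls that held with the settings given here and with 13 others numbered 2 higher and 22 lower. The 22 were spread over the complexes: 10 from complex I besides the assembly factor Ndufaf5 (Ndufa9, Ndufa11, Ndufab1, Ndufb2, Ndufs3, Ndufs4, Ndufs7, Ndufs8, Ndufv1 and Ndufv2), Sdhb of complex II, Uqcrc1, Uqcrc2 and Uqcrfs1 of complex III, Cox5a of complex IV, and Atp5a1, Atp5b, Atp5c1, Atp5f1, Atp5g1 and Atp5g3 of complex V. Among the 8 Ndufaf assembly factors, 5 fell and none rose, with a median of −0.76. Ndufaf5, which modifies a core subunit during assembly, had log2 values of 7.02 to 9.06 (median 8.48) in dendrites and 8.75 to 10.10 (median 9.37) in cell bodies and fell by 1.03. Ndufaf6 had the most negative difference of any member, −1.82, but did not pass (adjusted p = 0.0515).

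Other genes of the pathway are given beside the 45.2% of all genes called in this comparison, 19.8% higher and 25.4% lower, with a median of −0.20. Of 31 assembly factors for complexes II to V, 17 were lower in dendrites and 1 higher, with a median of −0.55. Coa5, an assembly factor of complex IV, was the higher one (0.83), and Ttc19, which acts on complex III, was lower by 1.22 (adjusted p = 5.52e-10). Both were chosen for mention after their values were seen. Of 8 complex I assembly factors outside the naming rule, 3 were lower and none higher (median −0.15). Among 15 genes for the mobile electron carriers, 6 were lower and none higher (median −0.51), with the cytochrome c gene Cycs lower by 0.80 (adjusted p = 9.11e-05). Among 4 genes for inhibitors and supercomplex factors, 3 were lower, among them Atpif1, the ATP synthase inhibitor, by 0.53 (adjusted p = 0.0121). Of 11 transcription factors and coactivators known to act on these genes, 2 were higher and 3 lower (median −0.23), a share close to that of all genes. Nrf1 and Gabpa, which bind many respiratory gene promoters, were higher (0.69 and 0.76, adjusted p = 0.00336 and 0.000118), Tfam, which packages and transcribes mitochondrial DNA, was lower by 0.77 (adjusted p = 0.00171), and the coactivator Ppargc1a had a difference of 0.12 that did not pass (adjusted p = 0.535).

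Within single subregions the number of members called was greatest in CA2 with the deposited values, though with none of the 3 other scalings. Quantile normalization called 29 there and 30 in CA1, library totals 56 in CA2, 61 in DG and 68 in CA1, and totals without the mitochondrial genome 25 in CA2, 26 in DG and 35 in CA1. Shares of all genes called under these scalings are not given, so the counts are not a result about the members alone. In CA2, 40 members fell and 3 rose, with a median of −0.78 against −0.17 for all genes, where 28% of genes were called, 10.8% higher and 17.2% lower. In CA3, 17 fell and 1 rose (median −0.52 against −0.18 for all genes), where 22.1% of genes were called, 10.6% higher and 11.4% lower. In DG, 7 fell and 4 rose (−0.23 against −0.14), where 22.3% of genes were called, 13% higher and 9.31% lower. In CA1, 5 fell and 7 rose (−0.01 against −0.11), where 24.8% of genes were called, 15.2% higher and 9.56% lower. The shares of members called in CA1, CA3 and DG, 13%, 19.6% and 12%, were below those of all genes, and that in CA2, 46.7%, was above. The most negative of a member's 4 differences was the one in CA2 for 58 members, a count not given for all genes. The scaling moved these splits: with quantile normalization 6 rose and 23 fell in CA2, 4 rose and 14 fell in CA3, 6 rose and 13 fell in DG, and 8 rose and 22 fell in CA1, and with values scaled to the library totals 2 rose and 59 fell in DG and 3 rose and 65 fell in CA1. In CA2, 17 members were called without mouse 502 and 24 without mouse 496, and in CA3, 4 without mouse 492 and 4 without mouse 502. Without mouse 502, 7 were called in CA1 and 4 in the DG.

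Cox6a1 was the only member called higher in all 4 subregions, by 1.89 for CA1, by 1.04 for CA2, by 0.94 for CA3 and by 1.21 for DG. Atp5g1 was the only member called lower in all 4, with differences of −0.65 for CA1, −1.88 for CA2, −1.23 for CA3 and −1.36 for DG. Cox8a was called higher in CA1 (1.85, adjusted p = 5.5e-06), CA2 (0.76) and DG (1.11). In CA1, complex IV had 6 members higher and 1 lower with a median of 0.90, while the medians of the other complexes lay between −0.16 and −0.01. Its members that rose in CA1 were Cox6a1, Cox8a, Cox7c (1.14), Cox4i1 (1.11), Cox6c (1.08) and Cox4i2, the last of which passed the filter only through dendrite libraries. In CA2, complex I had 17 lower, complex II 2, complex III 4 and complex V 10, none of them with a member higher, and complex IV had 3 each way. The largest falls in CA2 after Atp5g1 were those of Ndufaf1 (1.63), an assembly factor, and Atp5sl (1.51). In CA3 the largest fall was that of Ndufs4 (1.34), and in DG that of Ndufb4, a membrane arm subunit of complex I (1.51, adjusted p = 0.0339).

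**Figure D3:**
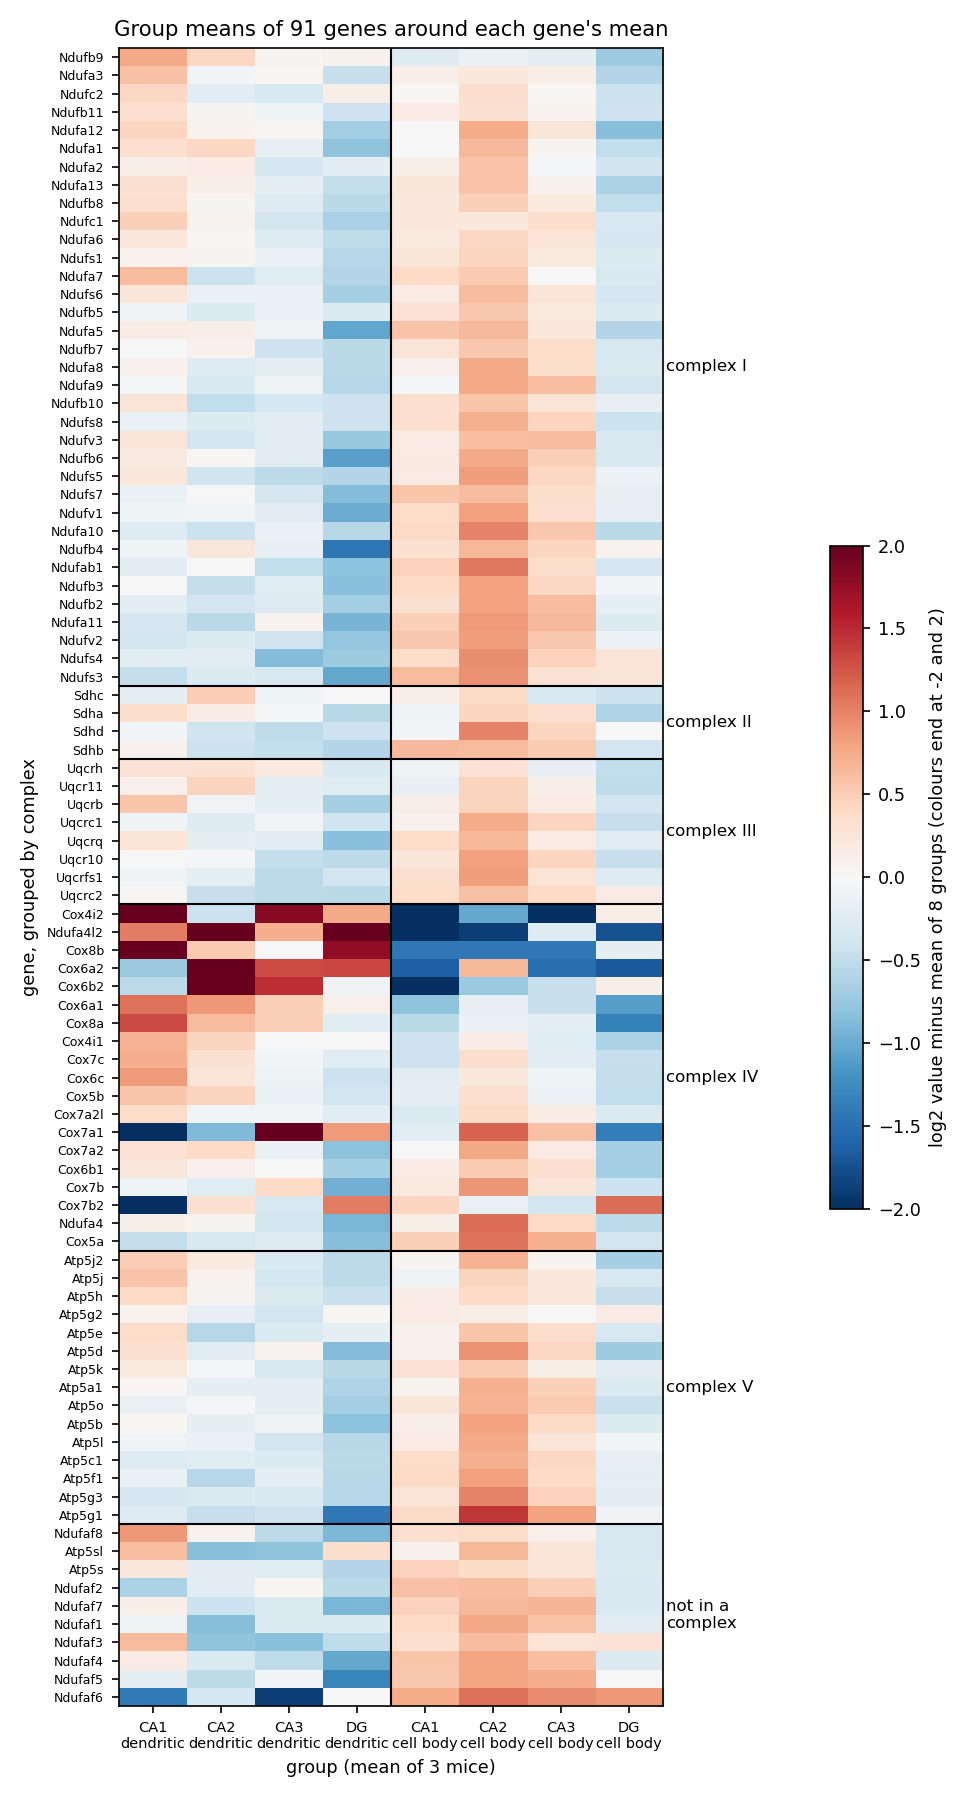
Mean log2 value of 91 of the 92 members in 8 groups, minus the member's mean over the groups, members in rows by complex and groups in columns with dendrites left of cell bodies. Colours end at −2 and 2. Over all 92 members, CA2 cell bodies are the highest of the 8 groups for 61, and DG dendrites the lowest for 50. Matching counts over all genes are not given.

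Among cell bodies, the members were highest in CA2 and lowest in DG. By group mean, 81 members had their highest cell body value in CA2 and 82 their lowest in DG. Matching counts over all genes are not given, and the medians of all genes lay on the same sides of 0 (0.10 in CA2 and −0.08 in DG). Against the mean of the other cell bodies, 18 members rose in CA2 and none fell, with 8.97% of all genes called, 7.34% higher, and a member median of 0.56 against 0.10 for all genes. They came from each complex: 5 of complex I, 1 of complex II, 2 of complex III, 4 of complex IV and 6 of complex V. The largest increases were those of Ndufa4 (1.13, adjusted p = 0.00621), Atp5g1 (1.05, adjusted p = 0.000232) and Atp5d (0.97, adjusted p = 0.00288), the delta subunit at the foot of the ATP synthase's central stalk. The 3 CA2 cell body libraries were not alike: the median member stood 0.40, 0.47 and 1.00 above its mean over the groups in mice 492, 496 and 502. Without mouse 502 the members called were Atp5g1 and Uqcrc1, without either other mouse 9 were called, and with quantile normalization 3 were. Relative to all genes, the member median was 0.46 with the deposited values, 0.43 with library totals and 0.26 with quantile normalization.

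In DG cell bodies, 38 members fell against the mean of the other cell bodies and none rose, with 17.2% of all genes called, 13.7% lower. The member median was −0.67 and that of all genes −0.08. Complex I had 16 members lower, complex II 1, complex III 4, complex IV 6 and complex V 10. Ndufa12 and Ndufa10, accessory subunits of complex I, were each lower by 1.18 (adjusted p = 0.00163 and 0.00372) and Atp5d by 1.17 (adjusted p = 0.000172). Sdhb, with log2 values of 11.03, 11.19 and 11.31 in DG cell bodies of the 3 mice, lay below the 11.93 to 12.47 of the other 9 cell body libraries (0.98 lower, adjusted p = 0.000311). Under scaling to library totals the median of all genes itself was 0.48 in this comparison, and 2 members fell and 1 rose, but relative to all genes the member median was −0.59 with the deposited values, −0.54 with library totals and −0.25 with quantile normalization. Without mouse 492, 15 members were called, and without mouse 502, 23. In CA1 and CA3 cell bodies no member was called by limma in either comparison, with 2 and 4 members at an unadjusted p under 0.05. In CA1 cell bodies 5.98% of all genes were called, 2.8% higher and 3.18% lower, and in CA3 cell bodies 7.04%, 4.91% higher and 2.12% lower.

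The mitochondrial genome's mRNAs were ordered in the same way among cell bodies. Of 13, 11 were higher in CA2 cell bodies than in the others and none lower (median 0.93, against 0.10 for all genes), where 7.34% of all genes were called higher. In DG cell bodies 10 were lower and none higher (median −0.80, against −0.08 for all genes), where 13.7% of all genes were called lower. Between the compartments the nuclear and the mitochondrial sets lay on different sides of 0: within CA2, 13 of 13 mitochondrial mRNAs were higher in dendrites, with a median of 2.41, where the nuclear members' median was −0.78.

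**Figure D4:**
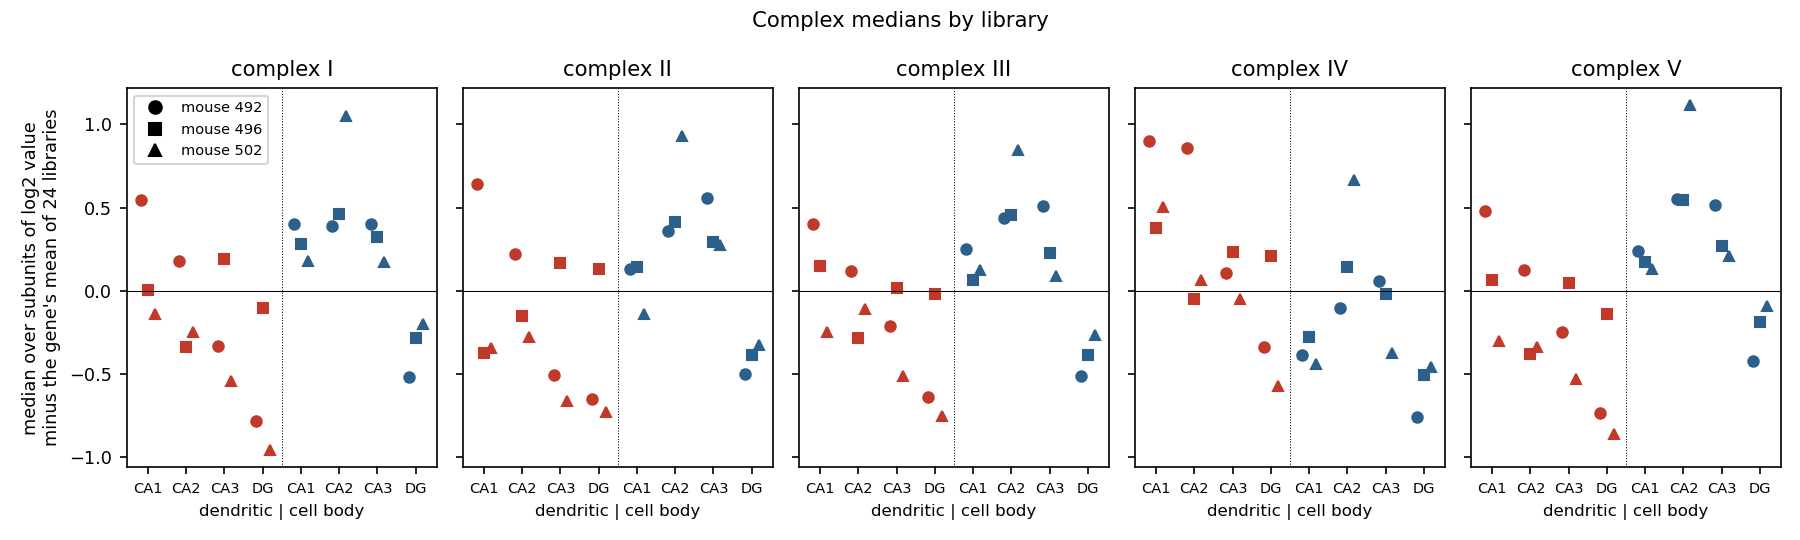
Median over the members of each complex of the log2 value minus the member's mean over the groups (vertical axis), for each of 24 libraries, the 4 dendrite groups left of the 4 cell body groups and 1 point per mouse. The CA2 cell bodies of mouse 502 stand above those of the other 2 mice.

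Among dendrites, by group mean of the deposited values, 63 members were highest in CA1 and 68 lowest in DG. Matching counts over all genes are not given. Against the other dendrites, the median of all genes was itself 0.15 in CA1, where that of the members was 0.47. In CA1 dendrites 13 members rose against the mean of the other dendrites and none fell, with 13.2% of all genes called, 10.8% higher and 2.46% lower, so the share of members called, 14.1%, was close to that background. Ndufaf3 (1.35, adjusted p = 0.0441), an assembly factor, Ndufa7 (1.05, adjusted p = 0.0105) and Cox8a (1.02, adjusted p = 0.00205) had the largest increases. The call did not hold without mouse 492, whose library was the high one: then 1 member was called, and it was lower. With quantile normalization 1 member fell and none rose, and with library totals 3 fell and 1 rose. In DG dendrites 14 members fell and none rose, with 6.96% of all genes called, 1.36% higher and 5.6% lower, and a median of −0.51 against −0.05 for all genes. Ndufa5, an accessory subunit of complex I, was lower by 1.12 (adjusted p = 0.0046), Atp5g1 by 1.05 (adjusted p = 0.000344) and Cox8a by 1.04 (adjusted p = 0.00232). No member was called there when the 4 libraries whose preparation was repeated, the CA2 and DG dendrites of mice 492 and 502, were left out, which leaves 1 library in each of those groups, assumed to vary like the other groups, and 2 were called without mouse 492 and 4 without mouse 502. In CA2 and CA3 dendrites no member was called by limma, with 5 at an unadjusted p under 0.05 in each. In CA2 dendrites 2.57% of all genes were called, 0.446% higher and 2.12% lower, and in CA3 dendrites 2.16%, 1.28% higher and 0.871% lower.

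The compartment difference of CA2 was set against the mean of those of the other 3 subregions. For 2 members it was more negative in CA2, with 7.17% of all genes called, 0.735% higher and 6.43% lower. Uqcrc1 had log2 values of 11.94, 12.11 and 12.24 in CA2 dendrites against 13.04, 13.14 and 13.09 in CA2 cell bodies. In the other subregions it had 12.19, 12.30 and 12.33 in CA1 dendrites against 12.26, 12.55 and 12.49 in CA1 cell bodies, 12.29, 12.54 and 12.06 in CA3 dendrites against 12.85, 12.83 and 12.69 in CA3 cell bodies, and 11.72, 12.32 and 11.85 in DG dendrites against 11.96, 11.83 and 11.88 in DG cell bodies. The CA2 difference was lower than the others by 0.80 (SE 0.197, adjusted p = 0.0122). For Atp5d, with 12.29, 11.86 and 11.95 in CA2 dendrites against 12.92, 13.01 and 13.50 in CA2 cell bodies, it was lower by 1.02 (SE 0.297, adjusted p = 0.0371). A test of any inequality among the 4 subregions called Uqcrc1 and Atp5sl, with 11.7% of all genes called. No member was called in either test with quantile normalization, without mouse 492 or without mouse 496, and none for the CA2 difference with library totals.

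Complex V's Atp5c1 was measured as separate transcripts in the transcript table, and their balance differed between the compartments. Atp5c1 encodes the gamma subunit, the shaft of the ATP synthase's rotor, and its alternative exon is known to be skipped in muscle and included in most other tissues. The exon is number 9 of 10 in ENSMUST00000114897, spans 37 bases at chr2:10056770-10056806 on the minus strand (GRCm38), and is absent from ENSMUST00000026887. The annotated ends of the 2 transcripts also differ, at 10056030 and 10080510 with the exon and at 10056016 and 10080427 without it. Whether the estimated shares follow the exon or the ends was not tested. The sequences across the join are printed because the 2 transcripts differ there, and capitals mark the alternative exon between the 20 bases on each side.
Atp5c1 with the exon: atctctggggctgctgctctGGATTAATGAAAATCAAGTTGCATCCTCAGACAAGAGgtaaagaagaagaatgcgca
Atp5c1 without the exon: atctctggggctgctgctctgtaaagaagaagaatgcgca
The form without the exon made up 9.86%, 0.0649% and 24.2% of the gene's normalized counts in CA1 dendrites of mice 492, 496 and 502, 30.5%, 15.0% and 30.0% in CA2 dendrites, 22.3%, 11.9% and 29.0% in CA3 dendrites, and 18.8%, 39.4% and 28.5% in DG dendrites. In cell bodies it made up 0.153%, 1.46% and 1.33% for CA1, 0.904%, 0.930% and 0.555% for CA2, 0.635%, 2.14% and 1.04% for CA3, and 1.48%, 0.594% and 0.0302% for DG. All dendrite libraries but the CA1 library of mouse 496 lay above all cell body libraries. The transcript's difference exceeded that of the gene's other transcript by 4.71 on the log2 scale, 3.49 against −1.22 (limma diffSplice, adjusted p = 0.000414 over all transcripts tested), but the adjusted p was 0.0592 without mouse 502. The sums of glial and vascular markers given above also separate the compartments, and their part in this balance was not tested.

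**Figure D5:**
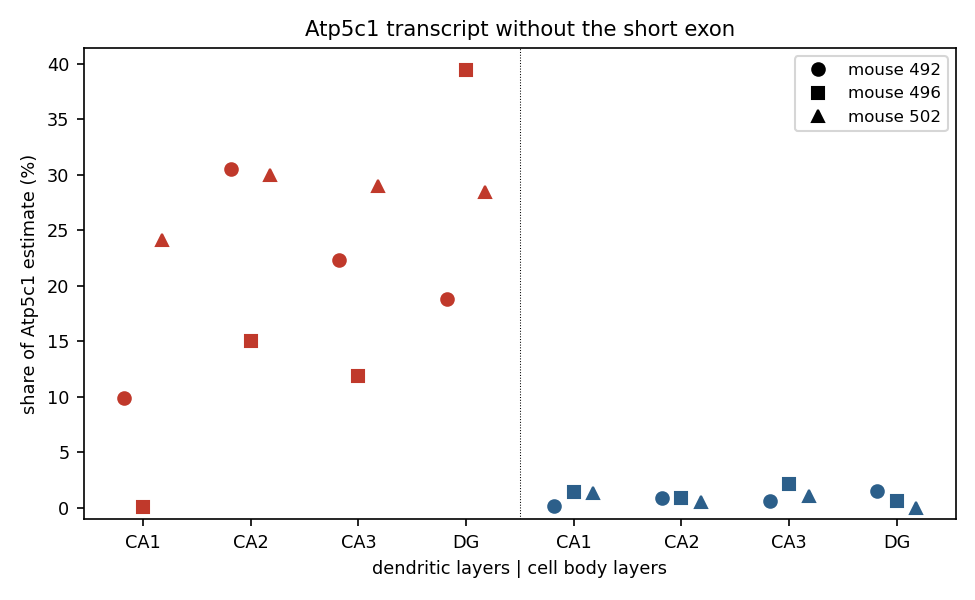
Share of Atp5c1 normalized counts in the transcript without exon 9 (vertical axis, percent) in each of 24 libraries, the 4 dendrite groups left of the 4 cell body groups, 1 point per mouse. Dendrites run from 0.0649% to 39.4% and cell bodies from 0.0302% to 2.14%.

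Among all transcripts tested, 9.64% differed from their gene in this way. Among the members, 117 transcripts of 48 genes could be tested and 8 transcripts in 4 genes were called. In Ndufv3, a small complex I subunit known to have 2 protein forms, the transcript ENSMUST00000046288 made up 20.9% to 50.4% of the gene in dendrites and 13.4% to 42.6% in cell bodies (diffSplice adjusted p = 0.0315). The processed transcript ENSMUST00000185273 of the same gene made up 0.168% to 14.1% in dendrites and 1.62% to 13.2% in cell bodies (adjusted p = 0.015). In Atp5d and Atp5l, a coding and a noncoding transcript moved apart, so that each pair is 1 difference. In Atp5d, the processed transcript ENSMUST00000150347 made up 0.615% to 12.8% in dendrites and 0.926% to 3.24% in cell bodies (adjusted p = 0.0215), and in Atp5l, a retained intron, ENSMUST00000216815, made up 3.32% to 15.3% in dendrites and 1.78% to 10.1% in cell bodies (adjusted p = 0.0289). The groups overlapped in each of these 3 genes, and each call was lost without at least 1 mouse.

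Promoter windows of 250 bases before and 50 after the annotated start were available from RefSeq (GRCm38.p6) for 77 members, in 83 windows. Each was searched on both strands for the core CATGCGC of NRF1, the core CCGGAAG of ETS factors such as GABPA, and the core GATGGCG of YY1. The NRF1 core was in 18.1% of member windows and 3.91% of all 32851 windows, the ETS core in 21.7% and 8.86%, the YY1 core in 18.1% and 3.49%, and any of the 3 in 47.0% and 14.7%. A match is a description of the sequence and not a site shown to be bound. The windows of Cox6a1 and Cox8a, whose values were the most firmly higher in dendrites, and of Atp5g1 and Ndufs3, which led those that fell, are printed 5′ to 3′ on the minus strand, with matches in capitals.
Cox6a1, chr5:115348909-115349208: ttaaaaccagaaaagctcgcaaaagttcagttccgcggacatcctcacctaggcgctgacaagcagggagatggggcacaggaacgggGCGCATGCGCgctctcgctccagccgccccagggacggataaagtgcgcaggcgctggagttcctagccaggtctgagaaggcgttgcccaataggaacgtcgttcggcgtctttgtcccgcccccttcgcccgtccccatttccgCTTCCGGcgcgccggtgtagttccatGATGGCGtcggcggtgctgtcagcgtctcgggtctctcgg
Cox8a, chr19:7217567-7217866: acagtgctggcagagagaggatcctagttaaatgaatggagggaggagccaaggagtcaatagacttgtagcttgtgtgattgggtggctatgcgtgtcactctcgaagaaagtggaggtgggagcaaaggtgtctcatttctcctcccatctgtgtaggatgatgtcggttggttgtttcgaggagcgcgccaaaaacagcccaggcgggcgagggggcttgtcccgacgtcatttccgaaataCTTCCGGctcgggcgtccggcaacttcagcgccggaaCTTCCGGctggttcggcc
Atp5g1, chr11:96075582-96075881: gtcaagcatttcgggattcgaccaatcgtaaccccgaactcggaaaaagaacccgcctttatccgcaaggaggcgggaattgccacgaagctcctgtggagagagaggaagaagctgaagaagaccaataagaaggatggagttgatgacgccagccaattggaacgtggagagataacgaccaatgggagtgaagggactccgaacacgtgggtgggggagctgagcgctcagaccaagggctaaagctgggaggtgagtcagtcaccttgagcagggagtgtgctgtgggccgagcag
Ndufs3, chr2:90904672-90904971: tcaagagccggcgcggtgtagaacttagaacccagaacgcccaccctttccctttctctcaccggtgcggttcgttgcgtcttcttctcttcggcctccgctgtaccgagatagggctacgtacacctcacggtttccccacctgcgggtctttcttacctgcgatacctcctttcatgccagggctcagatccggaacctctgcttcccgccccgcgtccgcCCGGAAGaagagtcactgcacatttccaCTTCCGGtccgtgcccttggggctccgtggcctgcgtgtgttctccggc
The Cox6a1 window holds 2 NRF1 matches, which overlap as a palindrome, 1 ETS match and 1 YY1 match. The Cox8a and Ndufs3 windows each hold 2 ETS matches, so that a gene higher and a gene lower in dendrites share them, and the Atp5g1 window holds none of the 3 motifs.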

How the data were processed

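RNA from laser-captured hippocampal layers of 3 mice was sequenced as 100 bp paired reads after 16 PCR cycles, per the labels' protocols. The authors estimated counts per gene and transcript with Salmon 0.9.1 on build mm10 (GRCm38), per the submitters' processing notes, which also list STAR 2.5.1b, featureCounts 1.5.1, limma 3.32.2 and DESeq2 1.18.1. The deposited values are log2 of the median-normalized estimate plus 1, per the file headers. They are not counts, so no count model was fitted and no counting interval is given; the depth in reads of each library is unknown. Estimates can split reads between near-identical paralogs and, where strand was not used, between overlapping antisense genes. The 12 array columns were not used, and 4 repeat libraries have no column of their own. It is not known which preparation, first, repeat or both, the CA2 and DG dendrite columns of mice 492 and 502 hold, and for 2 of the repeats the title and the animal label disagree.

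Genes that reached a value of 10 in 3 or more libraries were fitted with limma 3.58.1 in R 4.3.3 (trend and robust, 8 groups, mouse as a block, 14 residual degrees of freedom), with Benjamini-Hochberg adjustment over all genes tested and calls at adjusted p under 0.05. The 15 comparisons share that fit, and those that share groups are not independent. Transcripts were tested with diffSplice. The procedure was tested on simulated data with known changes. Alternatives were quantile normalization, scaling to library totals with and without the mitochondrial genome, no filter, a filter at 100, a further pseudocount of 10, no trend, no block, and leaving out each mouse, the 4 repeated dendrite libraries, or both CA1 dendrite libraries that stand apart. The 8 libraries of a number come from the same animal, which is why the block was used, although deviations of libraries of 1 mouse correlated by only −0.05 to 0.07 (84 pairs). All libraries came from 3 mice, but the p-values and SEs do not measure the spread among 3 animals. They rest on the spread left after the group and mouse terms, pooled over 24 libraries and moderated over genes by limma. In the mean of 4 subregions, the 4 differences of a mouse count as separate values.

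Members and gene lists were chosen with earlier results of these data known, and no p is adjusted over them alone. The genes named are the complex II subunits, the complex I core, Uqcrfs1, Uqcrc1, Uqcrc2, Atp5a1, Atp5b and the paralog sets, and beyond these the largest differences among called members with 1 direction in all mice (6 each way for the mean of 4 subregions, 3 each way elsewhere). Others were chosen after their values were seen. Coordinates and lengths are from GENCODE M21 (all 92 members found), and promoters from RefSeq. Protein sequences were not used here. The values of 1 member are not reported here, although it is counted in the totals.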

Additional observations from a re-analysis of the deposited data

Results flagged for a closer look

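Differences among subregions in the compartment difference were marked by the test of the difference itself. Uqcrc1, a core protein of complex III, had a compartment difference in CA2 that differed from the mean of the other 3 subregions by −0.80 on the log2 scale, and its F over all 4 subregions was 7.36 (limma, adjusted p = 0.0122 and 0.0152). Its dendrite values were alike in the 4 subregions, with group means of 12.27 for CA1, 12.10 for CA2, 12.30 for CA3 and 11.96 for DG, against cell body means of 12.43 for CA1, 13.09 for CA2, 12.79 for CA3 and 11.89 for DG.

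Atp5d, the delta subunit of complex V, differed in CA2 from the others by −1.02 (adjusted p = 0.0371). Beside the CA2 values given above, its log2 values in mice 492, 496 and 502 were 13.27, 12.45 and 11.94 in CA1 dendrites against 12.34, 12.27 and 12.37 in CA1 cell bodies, 12.44, 12.57 and 11.95 in CA3 dendrites against 12.92, 12.64 and 12.41 in CA3 cell bodies, and 11.23, 11.87 and 11.01 in DG dendrites against 11.45, 11.70 and 11.45 in DG cell bodies. CA1 dendrites of mouse 492, a library that stood apart, gave the highest of its dendrite values.

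Atp5sl, which is not an ATP synthase subunit, had an F of 5.37 over the 4 subregions (adjusted p = 0.0493). Its log2 values in the 3 mice were 11.00, 9.37 and 8.33 in CA1 dendrites against 8.49, 9.21 and 9.44 in CA1 cell bodies, 7.57, 8.17 and 8.63 in CA2 dendrites against 9.83, 9.42 and 9.65 in CA2 cell bodies, 7.60, 8.20 and 8.71 in CA3 dendrites against 9.29, 9.19 and 9.20 in CA3 cell bodies, and 9.60, 9.34 and 9.00 in DG dendrites against 8.91, 8.60 and 8.40 in DG cell bodies. The DG was higher in dendrites in all 3 mice, and CA2 and CA3 were lower in all 3. None of these calls held with quantile normalization.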

How the results depend on the processing

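For the mean of 4 subregions, more members were called lower than higher in dendrites in each of the 13 settings tried (the filter at 100 tested 89 of the 92 members), but scaling to library totals, which include the mitochondrial genome, gave 84 members called (6 higher, 78 lower) with medians of −0.94, −0.87, −0.94, −0.22 and −0.99 for complexes I to V, that of complex IV having turned, and differences of −0.38 for Sdhc and −0.48 for Cox7a2l. That scaling moved the median of all genes to −0.63. It gave 68 called members in CA1, 53 in CA3 and 61 in DG, and, against the other subregions, 4 in CA1 dendrites, 1 in CA2 dendrites, 2 in CA3 dendrites, 6 in DG dendrites, 4 in CA2 cell bodies, 3 in DG cell bodies, 0 for the CA2 difference and 1 for the F test. Totals without the mitochondrial genome gave 35 in CA1 (6 higher, 29 lower), 25 in CA2 (6 higher, 19 lower), 26 in DG, then 4, 7, 1 and 6 in CA1, CA2, CA3 and DG dendrites, 4 and 3 in CA2 and DG cell bodies, and 0 in both difference tests. Quantile normalization gave 30 in CA1, 19 in DG, then 1, 7, 3 and 7 in the dendrites in that order, 3 and 7 in CA2 and DG cell bodies, and 0 in both difference tests. The directions in CA1 turned under all 3 scalings, for dendrites against cell bodies and against other dendrites. Shares of all genes called are not given for the settings of this section, so its counts are not a result about the members alone.

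With no filter, 7 members were called in DG, 3 in CA1 dendrites, 9 in DG dendrites and 1 in each difference test, and with a filter at 100, 5 and 4 in the difference tests. Without trend and robust estimation, 7 were called in CA1, 8 in CA3, 6 in DG, 3 in CA1 dendrites, 5 in DG dendrites, 5 in CA2 cell bodies and 0 in both difference tests. The next pair of settings leaves groups with 1 library (CA2 and DG dendrites, then CA1 dendrites), which is assumed to vary like the others. Without the 4 repeated dendrite libraries, 12 were called in CA1, 22 in CA3, 4 in DG (3 higher, 1 lower), 21 in CA2 cell bodies, 39 in DG cell bodies, 3 in CA1 dendrites, 0 in DG dendrites and 1 for the CA2 difference. Without the CA1 dendrite libraries of mice 492 and 496, 13 were called in CA1 (4 higher, 9 lower), 29 in CA3, 1 in CA1 dendrites, 1 in CA2 dendrites, 2 in CA3 dendrites, 9 in DG dendrites and 29 in CA2 cell bodies. The cause of these shifts was not tested.

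Leaving out 1 mouse gave 32 to 54 called members for the mean, 7 to 9 in CA1, 17 to 44 in CA2, 4 to 18 in CA3, 4 to 6 in DG (3 higher and 1 lower without mouse 502), 1 to 10 in CA1 dendrites, 0 in CA2 and CA3 dendrites, 2 to 13 in DG dendrites, 0 in CA1 and CA3 cell bodies, 2 to 9 in CA2 cell bodies, 15 to 28 in DG cell bodies and 0 to 1 in each difference test. Medians ran from −0.52 to −0.29 for complex I, −0.50 to −0.21 for complex II, −0.53 to −0.30 for complex III, 0.13 to 0.53 for complex IV and −0.54 to −0.31 for complex V, and 2 to 10 transcripts were called. With no replicate block, 53 members were called for the mean, 3 in place of 2 in the F test and 37 in DG cell bodies, and no other count moved by more than 2. The 3 mice, the input of 1 ng in dendrites and the floor at 0 limit what low-level members can show.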

Other observations

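Among the 84 members that reached the level of 10 in every library, the difference between dendrites and cell bodies went with transcript length, a relation noticed after the values were seen. Spearman's rho was −0.446 across these members, against 0.133 across all 11754 genes at the same level, and genes are not independent replicates. The shortest 28 members (0.371 to 0.698 kb) had a median difference of −0.18, where 210 genes of the same lengths had −0.05. Members of middle length (0.704 to 1.14 kb) had −0.45 against −0.39 for 578 genes, and the longest (1.16 to 2.79 kb) had −0.68 against −0.30 for 4037 genes. Cox6a1, Cox8a and several other complex IV genes are among the short ones, so complex and length overlap in these members.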
